A study of Oryzias latipes with 20 samples.

Results

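LOC101160582 is a medaka gene whose protein is described in the deposited table as peptide YY-like, and it was 1 of 22615 genes in that table. It was selected on the FPKM values reported here, so its own levels are given as a description without a test. FPKM is the number of sequenced fragments scaled by transcript length and by the library's total. The RNA came from medaka (Oryzias latipes, a small freshwater fish), from tissue that joined hypothalamus, pituitary and ventral telencephalon. All 20 libraries came from fish held under a constant photoperiod and differ in the number of days since a transition to conditions that the labels abbreviate as LW. The days were 0, 7, 30, 60, 90, 120 and 150, with 3 libraries on each except day 60, which has 2. The labels name no genotype, strain, age or sex, and no group without the transition was sampled, so day 0 is the reference for every later day and time since the transition cannot be told apart from age. The labels mark separate samples and do not say whether each is 1 fish or a pool, so p-values reflect only how far these samples differed among themselves.

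Neuropeptide Y and peptide YY are short amidated peptides of one family, cut from longer precursors and acting on G protein-coupled Y receptors. Neuropeptide Y is a neurotransmitter of the hypothalamus and forebrain that stimulates feeding in mammals and fish and acts on gonadotropin release, whereas peptide YY is best known in mammals as a gut hormone that curbs food intake. In fish, peptide YY genes are also transcribed in the brain, and teleosts carry additional copies of family genes from their own genome duplication.

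The name of LOC101160582 is not settled within the annotation. The protein description of its transcript, XM_020710138.2, was peptide YY-like, while the orthology column of the same table assigned it to neuropeptide Y. In the gene order of RefSeq assembly ASM223467v1, used here for neighbours only, the genes before it were LOC101160191 (MAGUK p55 subfamily member 6-like), gsdme (gasdermin-E) and osbpl3 (oxysterol-binding protein-related protein 3). The annotated npy gene also lay next to a MAGUK p55 subfamily member 6 gene, LOC101155860. LOC111946419, described as peptide Y and assigned by orthology to peptide YY, lay next to a MAGUK p55 subfamily member 2 gene, LOC101158236. A MAGUK p55 neighbour of any kind is therefore not particular to npy. The member differed, being member 6 beside LOC101160582 and npy and member 2 beside LOC111946419. The gene after LOC101160582 was malsu1. As background, the human NPY gene has relatives of the genes before LOC101160582 among its neighbours. The gene is therefore called LOC101160582 below, without choosing between the names.

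The transcript was low at the start of the series and higher in every library from day 30 onward. On day 0 the 3 libraries held 6.08, 6.1 and 6.34 FPKM. On day 7 they held 6.75, 11.03 and 7.98 FPKM. All 3 day 7 values lay above all 3 day 0 values, the lowest of them by a factor of 1.06. On day 30 the libraries held 78.11, 30.98 and 52.25 FPKM, and on day 60 the 2 libraries held 40.08 and 14.69 FPKM. On day 90 they held 17.85, 25.59 and 16.08 FPKM. All 3 day 90 values lay below the lowest day 30 value. On day 120 they held 55.84, 55.56 and 100.59 FPKM, and on day 150 they held 16.01, 61.03 and 44.12 FPKM. The 14 libraries of days 30 to 150 all lay above the 6 libraries of days 0 and 7, the lowest of the former at 14.69 FPKM and the highest of the latter at 11.03 FPKM.

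**Figure D1:**
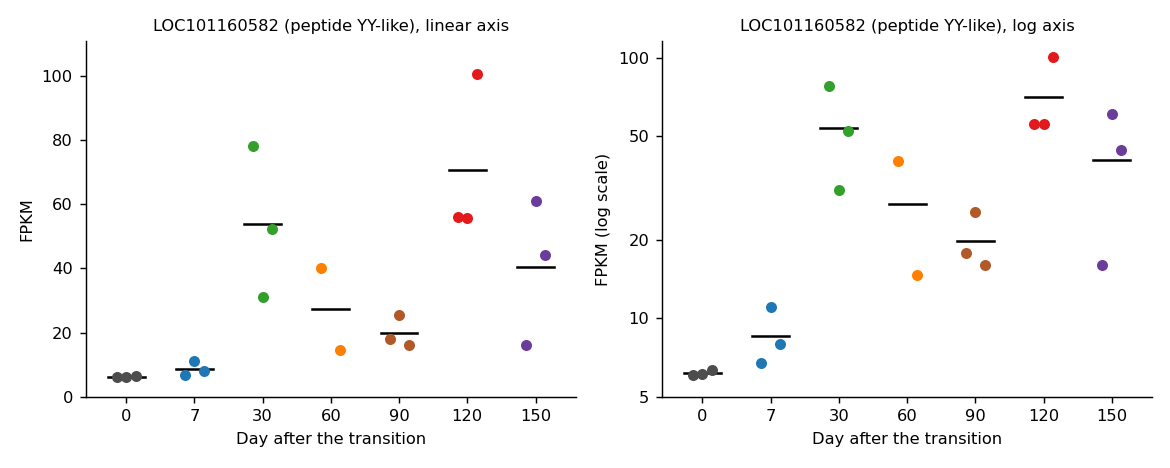
FPKM of LOC101160582 in each of the 20 libraries (points) by day after the transition, on a linear axis (left) and a log axis (right), with bars at the mean of each day. The 6 libraries of days 0 and 7 lie between 6.08 and 11.03 FPKM, and the 3 libraries of day 120 between 55.56 and 100.59 FPKM.

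The day means formed 2 high points with lower levels between them, as the plot of LOC101160582 by day shows. The mean was 6.17 ± 0.145 FPKM (SD, n = 3) on day 0 and 8.59 ± 2.2 FPKM (SD, n = 3) on day 7. It was 53.8 ± 23.6 FPKM (SD, n = 3) on day 30, 27.4 ± 18 FPKM (SD, n = 2) on day 60 and 19.8 ± 5.06 FPKM (SD, n = 3) on day 90. The second and taller high point was day 120, at 70.7 ± 25.9 FPKM (SD, n = 3), and day 150 stood at 40.4 ± 22.7 FPKM (SD, n = 3). The mean of day 120 was 11.4 times that of day 0, and that of day 30 was 8.71 times as high. On the log2(FPKM + 1) scale, which slightly understates ratios at these levels, the difference from day 0 was 0.39 (SE 0.19) on day 7, 2.84 (SE 0.38) on day 30 and 1.82 (SE 0.69) on day 60. It was 1.51 (SE 0.19) on day 90, 3.26 (SE 0.28) on day 120 and 2.34 (SE 0.56) on day 150. These differences all share the 3 day 0 libraries and are not independent of each other.

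When days were ordered by mean level, some neighbours overlapped in their libraries and some did not. LOC101160582 was chosen on these values, so overlap or its absence is a description and not a test. From the highest mean to the lowest the order was day 120, 30, 150, 60, 90, 7 and 0. The libraries of neighbours in this order overlapped for day 120 and day 30, day 30 and day 150, day 150 and day 60, and day 60 and day 90. They did not overlap for day 90 and day 7, whose means differed by a factor of 2.31, nor for day 7 and day 0, by a factor of 1.39. Among days that are not neighbours in the order, day 120 overlapped neither day 60 nor day 90. Its lowest library held 55.56 FPKM, and the highest of days 60 and 90 held 40.08 and 25.59 FPKM.

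Spread within a day was small on day 0 and wide later. The highest library exceeded the lowest by a factor of 1.04 on day 0, 1.63 on day 7 and 2.52 on day 30. The factor was 2.73 on day 60, 1.59 on day 90, 1.81 on day 120 and 3.81 on day 150. The wide gap on day 150 came from replicate 1, at 16.01 FPKM, which lay just below the lowest day 90 library at 16.08 FPKM. In bulk tissue, fewer cells carrying a transcript and less of it per cell cannot be told apart, and this holds for every level given here. Among the 15947 genes whose mean reached 1 FPKM, the residual SD of LOC101160582 within days was 0.60 on the log2 scale, against a median of 0.16, and 734 genes varied more. The range of its 7 day means was 3.26 on that scale, against a median of 0.30, and 12 genes had a wider one. It was thus among the genes with the widest range between days, and it also varied more between libraries of 1 day than most.

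Markers of the labelled tissue were present, with 2 libraries apart in other markers. The 14 hypothalamus markers included LOC101160739 (isotocin precursor) at a mean of 357 FPKM, and the 11 telencephalon markers included dlx1 at 40 FPKM. The summed level of 10 pituitary hormone entries ran from 1758 to 9081 FPKM in 19 libraries and was 786.9 FPKM in day 60 replicate 1, which also had the highest sum of 9 blood cell entries, at 6999 FPKM (median over libraries 2272 FPKM). The summed level of 5 retina entries was 16.62 FPKM in day 150 replicate 3, where rho (rhodopsin) stood at 14.48 FPKM, and 1.09 to 7.59 FPKM in the others. That library held 44.12 FPKM of LOC101160582, between the other 2 of its day. The 2 markers of gut epithelium and exocrine pancreas were near 0. The intestinal marker fabp2 was at a mean of 0.0505 FPKM and the pancreatic marker cpb1 (carboxypeptidase B) at 0.182 FPKM. The pancreatic regulator pdx1 stood at 0.041 FPKM and the glucagon entries LOC101155154 and LOC101166856 at 0.231 and 0.134 FPKM.

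That pituitary-poor library held more LOC101160582 than its partner, not less. Day 60 replicate 1 had 40.08 FPKM of the transcript and replicate 2 had 14.69 FPKM, a factor of 2.73. The same library had 6.61 FPKM of lhb, the luteinizing hormone beta subunit made in pituitary gonadotropes, against 34.16 FPKM in replicate 2. It had 21.67 FPKM of cga, the alpha subunit shared by the glycoprotein hormones, against 147.91 FPKM. LOC101160582 was therefore not low in the library with the least pituitary hormone RNA. Without that library the day 60 difference from day 0 fell from 1.82 to 1.13 on the log2 scale.

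Within its family, LOC101160582, which was chosen on these values, had the widest range of day means. The table held 4 entries described as neuropeptide Y or peptide YY precursors. The most abundant was npy, with a mean of 237 FPKM over the 20 libraries and a range of 160.38 to 302.73 FPKM. LOC101155694 (peptide YY-A) had a mean of 12.2 FPKM and ranged from 1.12 to 21.62 FPKM. LOC111946419, described as peptide Y and assigned by orthology to peptide YY, had a mean of 5.22 FPKM and ranged from 3.61 to 7.77 FPKM. LOC101160582 had a mean of 32.7 FPKM, and its highest library exceeded its lowest by a factor of 16.5. By that factor between single libraries LOC101155694 had the wider range, from its lower levels of 1.12 to 21.62 FPKM. On the log2(FPKM + 1) scale the range of day means was 3.26 for LOC101160582, 1.85 for LOC101155694 and 0.36 for npy.

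The other 3 precursors did not pass the test of a difference between days. The test was a moderated F test over the 7 days with limma on log2(FPKM + 1), with Benjamini-Hochberg adjustment over 15947 genes and a threshold of 0.05. It called 15 genes, or 0.0941% of those tested, and 0 of these 3 precursors. At an unadjusted p under 0.05, 2 of the 3 passed, beside 13.1% of all genes tested. For npy the highest day mean was 275 ± 6.31 FPKM (SD, n = 2) on day 60 and the lowest 220 ± 61.9 FPKM (SD, n = 3) on day 120 (limma F test, adjusted p = 0.845). LOC101155694 had 15.1 ± 2.78 FPKM (SD, n = 3) on day 0, 18.1 ± 3.11 FPKM (SD, n = 3) on day 30 and 5.4 ± 4.29 FPKM (SD, n = 3) on day 150 (limma F test, adjusted p = 0.222). Its 3 day 150 libraries held 9.69, 5.4 and 1.12 FPKM, all below the lowest day 0 library at 11.9 FPKM. LOC111946419 ranged in mean from 4.15 FPKM on day 90 to 6.52 FPKM on day 30 (limma F test, adjusted p = 0.363). A second test over days 7 to 150 alone also called 15 genes (0.0941%) and 0 of these 3.

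**Figure D2:**
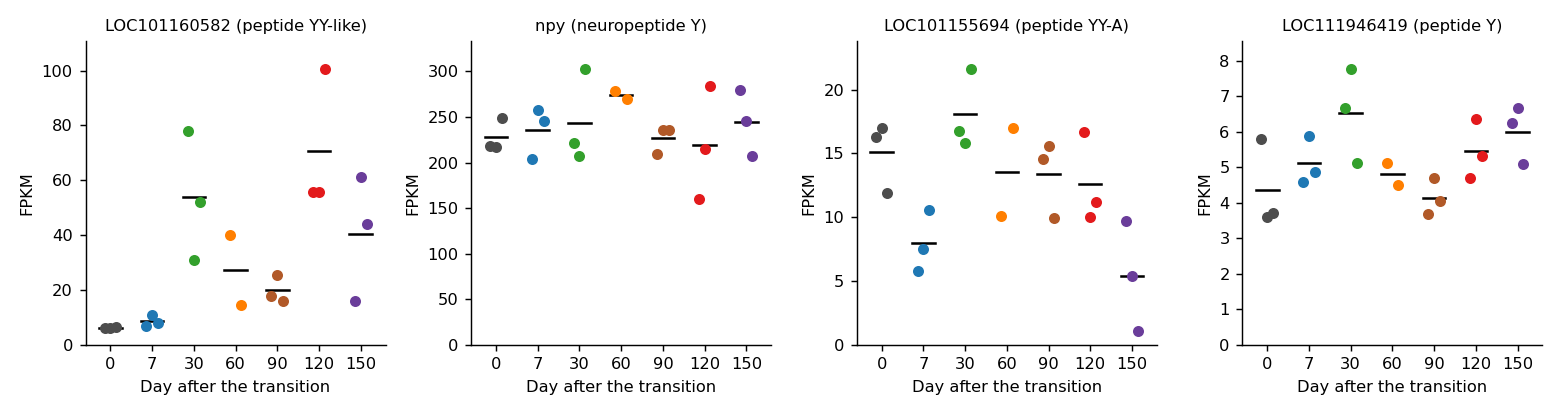
FPKM of the 4 neuropeptide Y and peptide YY precursor entries in each library (points) by day after the transition, with bars at the day means and a separate linear axis from 0 for each gene. LOC101160582 ranges from 6.08 to 100.59 FPKM, and npy from 160.38 to 302.73 FPKM.

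The make-up of the family's RNA differed between days. Of the summed FPKM of the 4 precursors, LOC101160582 held 2.43% on day 0 and 3.34% on day 7. Its share was 16.7% on day 30, 8.55% on day 60, 7.51% on day 90, 22.9% on day 120 and 13.6% on day 150. The mean of npy exceeded that of LOC101160582 by a factor of 36.9 on day 0 and of 3.11 on day 120. By day mean LOC101160582 ranked number 3 of the 4 on day 0, below LOC101155694, and number 2 on each later day. By library it was also below LOC101155694 in day 7 replicate 3, at 7.98 against 10.59 FPKM, and in day 60 replicate 2, at 14.69 against 16.99 FPKM. The plot of the 4 precursors by day shows these levels.

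None of the receptors for these peptides was called. Of 7 entries described as neuropeptide Y receptors, 5 had a mean of at least 1 FPKM. Of these 5, 0 passed the limma F test over the 7 days, beside 0.0941% of all genes tested. At so low a share of calls, 0 of 5 carries no information about the receptors. An unadjusted p under 0.05 was found for 1 of the 5, beside 13.1% of all genes tested. That one was LOC101167799 (type 1), with a mean of 6.54 FPKM, highest on day 90 and lowest on day 60 (limma F test, adjusted p = 0.352). LOC101162714 (type 2) had a mean of 3.45 FPKM, and its highest day was day 0 and its lowest day 120, with a log2 difference of −0.51 between them (limma F test, adjusted p = 0.396). Over the 20 libraries its level ran opposite to that of LOC101160582, with a Pearson r of −0.70. That r was −0.56 over the 14 libraries of days 30 to 150 and −0.54 over deviations from day means. LOC101175094 (type 1-like) had a mean of 7.99 FPKM and LOC101168234 (type 1-like) of 1.76 FPKM. LOC101174272 (type 2), at 19.2 FPKM, is uncertain, because a transcript of a PRELI domain protein is filed under the same entry. LOC101165457 (type 2-like) and LOC101158998 (type 6-like) were too low to test, at means of 0.188 and 0.017 FPKM.

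Genes that cut and pack peptide precursors were followed over the same days. Only 12 tested genes had a wider range of day means than LOC101160582, which was chosen on its values. Smaller ranges in these genes therefore carry no information. None of 13 such genes passed the limma F test over the 7 days, and 5 had an unadjusted p under 0.05, beside 13.1% of all genes tested. Their median log2 difference of day 120 from day 0 was 0.18, with 11 of 13 above 0, beside a median of 0.02 and 55.1% above 0 over all genes tested. The prohormone convertase pcsk2 had a mean of 150 FPKM and a range of 0.32 between its day means on the log2 scale. The amidating enzyme pam had a mean of 114 FPKM and the same range of 0.32. The summed level of the 13 genes ran from 1902 to 2281 FPKM over the libraries, with an r with LOC101160582 of 0.73, or 0.33 over the 14 libraries of days 30 to 150.

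No entry on the list of feeding and energy peptides, which includes the leptin receptor lepr, was called. Of 24 listed entries 21 were tested, 0 were called and 9 had an unadjusted p under 0.05 (limma F test), beside 13.1% of all genes tested. Their median log2 difference of day 120 from day 0 was 0.21, with 14 of 21 above 0, beside 0.02 and 55.1% over all genes. Day 120 had the highest mean of log2 values for 4 of 21, beside 13.7% of all genes. LOC101165589 encodes agouti-related protein, which in mammals is made by the same hypothalamic neurons as neuropeptide Y. Its highest mean was 10.8 ± 3.13 FPKM (SD, n = 2) on day 60, and its lowest was 7.46 ± 0.845 FPKM (SD, n = 3) on day 120. Its r with LOC101160582 was 0.25 over the 20 libraries and 0.27 over the 14 libraries of days 30 to 150. After each day's mean was subtracted, its r over the deviations was 0.61, where 95% of all genes lay below 0.48. For pomc, the precursor of melanocortins and corticotropin, r was 0.20 over the 20 libraries and −0.21 over the deviations.

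The genes whose levels ran closest to LOC101160582 were sought among the 15946 others whose mean reached 1 FPKM. The measure was Pearson r of log2(FPKM + 1) over the 20 libraries, given as a description without a p. The points share the 7 days, and the 6 libraries of days 0 and 7 form a low cluster of their own, so r within the 14 later libraries is given too. Over all genes compared, the median r was 0.04, 95% of genes lay below 0.48 and 7 genes reached 0.8. The 10 closest were npb, pgr, cyp19b, ar-alpha, LOC101167231, LOC101163166, hspe1, esrp1, rnaseh1 and f13a1, with r from 0.93 down to 0.77. The 11th gene had the same r of 0.77, so the end of the list is arbitrary. With each library left out in turn, the first 7 stayed among the 10 closest in 20 of 20 runs.

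Closest of all was the more abundant of 2 entries named npb, the precursor of neuropeptide B, a hypothalamic and telencephalic peptide that in medaka is known to depend on estrogen and to be made mostly in females. Its r was 0.93 over 20 libraries (Spearman's rho 0.92) and 0.84 over the 14 later ones. Its mean was 61.9 ± 18 FPKM (SD, n = 3) on day 0, 248 ± 29.2 FPKM on day 30, 133 ± 52 FPKM on day 90 and 311 ± 32.1 FPKM on day 120. Days 30 and 120 were thus its highest days, as for LOC101160582, whereas days 0 and 7 stood level at 61.9 and 61.8 FPKM and days 60 and 150 both at 174 FPKM. It had a smaller ratio of day 120 to day 0, at 5.03 against 11.4 for LOC101160582. Both genes had their highest library in day 120 replicate 3. The other entry had a mean of 4.63 FPKM and an r of 0.06.

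Several of the other closest genes belong to sex steroid signalling. The second was pgr, the progesterone receptor, at a low mean of 2.01 FPKM (r 0.90, and 0.75 over the 14 later libraries). The third was cyp19b, the brain aromatase that makes estrogen from androgen in radial glia of fish, at a mean of 243 FPKM (r 0.89, and 0.69 over the later libraries). The fourth was ar-alpha, an androgen receptor whose protein description is androgen receptor beta, at 4.98 FPKM (r 0.85, and 0.87 over the later libraries). The ratio of day 120 to day 0 was 3.52 for pgr, 4 for cyp19b and 1.59 for ar-alpha, so ar-alpha had its high days in common with LOC101160582 at a much smaller ratio. The estrogen receptor esr1 stood lower, at an r of 0.62. The 2 entries named esr2 had r of 0.28 and −0.04, and the other androgen receptor, LOC100049233, had 0.10.

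**Figure D3:**
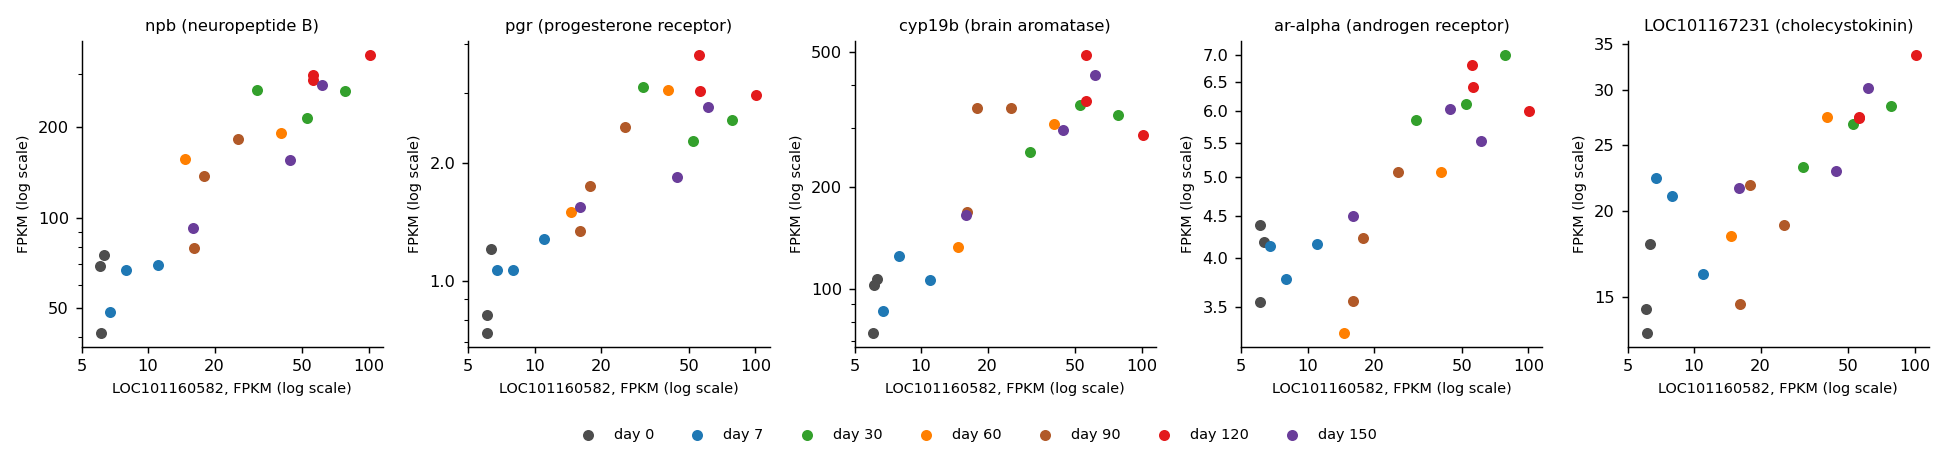
FPKM of npb, pgr, cyp19b, ar-alpha and LOC101167231 (vertical axes, log scale) against FPKM of LOC101160582 (horizontal axes, log scale), 1 point per library, coloured by day. In all 5 panels most libraries of days 0 and 7 lie at the lower left and those of day 120 at the upper right, with r from 0.84 to 0.93.

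The fifth, LOC101167231, encodes a cholecystokinin precursor, a satiety peptide of brain and gut. Its mean was 22.4 FPKM, its r 0.84 over the 20 libraries and 0.88 over the 14 later ones, and its ratio of day 120 to day 0 was 1.94. The more abundant entry with the symbol cck, at 290 FPKM, had an r of 0.60. Next came LOC101163166, an uncharacterized gene (r 0.83), and hspe1, a mitochondrial chaperonin (r 0.82), whose mean was 50.2 ± 2.01 FPKM (SD, n = 3) on day 0 and 61.6 ± 9.04 FPKM (SD, n = 3) on day 120. The last 3 were esrp1 (an RNA splicing factor), rnaseh1 (a ribonuclease) and f13a1 (coagulation factor XIII A). With each library left out in turn, esrp1 stayed among the 10 closest in 12 of 20 runs, rnaseh1 in 6 and f13a1 in 7. At the other end, msi2 and LOC101173626 (copine-8) had an r of −0.81 and LOC101162320 (a rho GTPase-activating protein) one of −0.80.

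For the 10 closest genes r was higher between day means than between libraries of the same day. They were chosen by r over the 20 libraries, which includes differences between days, so the choice itself favoured a high r between day means. Over the 7 day means r was 0.98 for npb and pgr, 0.95 for cyp19b, 0.93 for LOC101167231 and 0.88 for ar-alpha. Among all genes compared, these values ranked number 2 for npb, 3 for pgr, 17 for cyp19b, 38 for LOC101167231 and 132 for ar-alpha. After each day's mean was subtracted, r over the deviations was 0.68 for ar-alpha, 0.65 for npb and cyp19b, 0.57 for LOC101167231 and 0.54 for pgr, where 95% of all genes lay below 0.48. Of the other 5 closest genes, rnaseh1 had 0.73 and LOC101163166 had 0.64, while hspe1 at 0.46, esrp1 at 0.45 and f13a1 at 0.39 lay below that level. None of the 10 closest genes over all libraries was among the 10 closest by these deviations. The summed level of 8 oligodendrocyte entries had an r of −0.57 with LOC101160582 over the same deviations, and that of 9 blood cell entries had 0.47. The oligodendrocyte sum was 1266 FPKM in day 120 replicate 3, 1052 FPKM in day 150 replicate 2 and 1513 FPKM in day 60 replicate 1, the highest library of each of those days for LOC101160582, against a highest sum of 2819 FPKM. The highest libraries of days 0, 7, 30 and 90 for LOC101160582 held 2446, 2154, 2221 and 2539 FPKM. Those of days 0 and 90 were the highest sums of their day, and those of days 7 and 30 lay between the other 2. The part of these cell types in the spread within days was not tested. In places a single library stood apart in several of these genes. Day 150 replicate 1 stood at 0.305 times the mean of the other 2 day 150 libraries for LOC101160582, and at 0.428 times for npb, 0.455 for cyp19b and 0.668 for pgr. Day 60 replicate 1 exceeded replicate 2 by a factor of 2.73 for LOC101160582, 2.3 for cyp19b, 2.03 for pgr and 1.22 for npb.

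**Figure D4:**
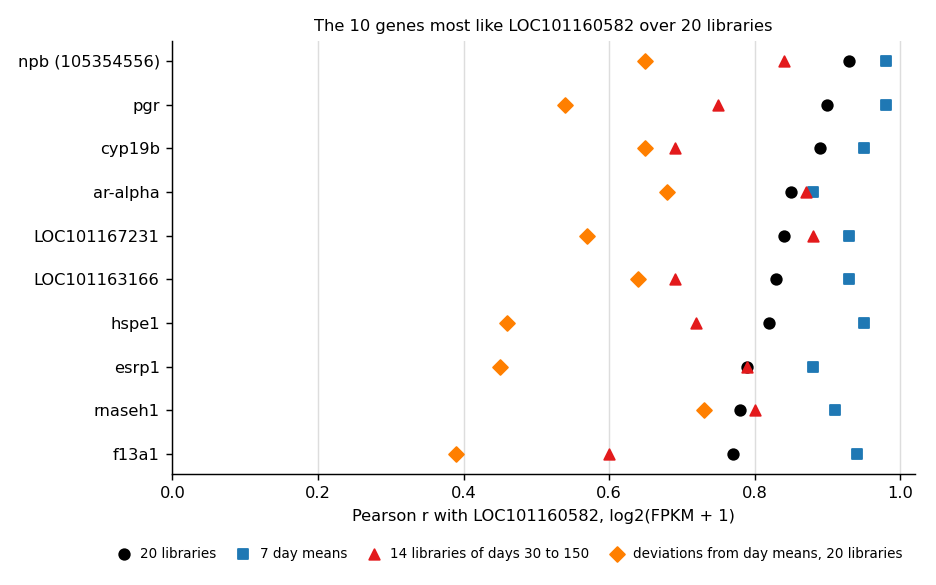
Pearson r with LOC101160582 on log2(FPKM + 1) for the 10 closest genes, over 20 libraries (circles), over the 7 day means (squares), over the 14 libraries of days 30 to 150 (triangles) and over deviations from day means (diamonds). For npb these are 0.93, 0.98, 0.84 and 0.65.

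The list of sex steroid genes put these values beside the rest of that pathway. Of 22 entries 18 were tested over the 7 days, and the limma F test called npb alone (adjusted p = 0.0152), while 7 of 18 had an unadjusted p under 0.05, beside 13.1% of all genes tested. The call of npb was lost over days 7 to 150 (limma F test, adjusted p = 0.0599), and also over the 7 days when any of 3 libraries was left out, namely replicates 2 and 3 of day 7 and replicate 3 of day 120. Over the 7 days cyp19b had an adjusted p = 0.0883, pgr 0.0939 and ar-alpha 0.132 in the same limma test. The median log2 difference of day 120 from day 0 was 0.27, with 15 of 18 above 0, beside 0.02 and 55.1% over all genes tested. Day 120 had the highest mean of log2 values for 5 of 18, beside 13.7% of all genes. This list and the likeness measure read the same libraries, and the list holds 4 of the 10 closest genes, so the list gives no separate evidence of likeness.

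The gonadotropin subunits ran closer to LOC101160582 without the pituitary-poor library than with it. Over the 20 libraries r was 0.67 for lhb, 0.71 for cga and 0.52 for fshb, the follicle-stimulating hormone beta subunit. Over the 14 libraries of days 30 to 150, which include day 60 replicate 1, r was 0.50 for lhb, 0.52 for cga and 0.48 for fshb. There 95% of all genes lay below 0.49. Without day 60 replicate 1, r was 0.89 for lhb, 0.93 for cga and 0.75 for fshb, and cga then ranked second of all genes after npb. That library was set aside after its values were seen, and the remaining libraries still include the low cluster of days 0 and 7. The mean of lhb was 27 ± 9.58 FPKM (SD, n = 3) on day 0, 118 ± 30.4 FPKM on day 30, 74.2 ± 13.1 FPKM on day 90, 214 ± 39 FPKM on day 120 and 53.3 ± 18.9 FPKM on day 150. It thus shared the highest day with LOC101160582, but its day 150 mean lay below its day 90 mean, where that of LOC101160582 lay above. Over deviations from day means in the 20 libraries, r was 0.03 for lhb, 0.04 for cga and 0.00 for fshb. These values include day 60 replicate 1, which exceeded replicate 2 for LOC101160582, at 40.08 against 14.69 FPKM. It lay below replicate 2 for lhb (6.61 against 34.16 FPKM), cga (21.67 against 147.91 FPKM) and fshb (18.46 against 162.24 FPKM). The likeness of the subunits within days was not tested without that library. Among the 10 pituitary hormone entries 8 were tested and lhb was the 1 called (limma F test, adjusted p = 0.0114), while 5 of 8 had an unadjusted p under 0.05, beside 13.1% of all genes tested.

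**Figure D5:**
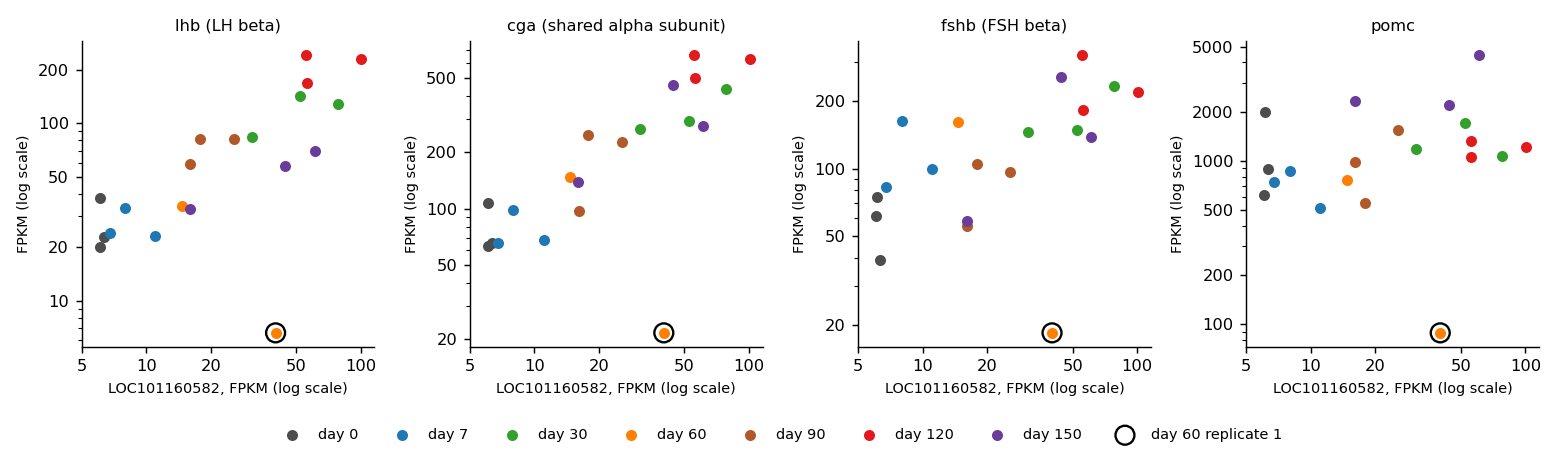
FPKM of lhb, cga, fshb and pomc (vertical axes, log scale) against FPKM of LOC101160582 (horizontal axes, log scale), 1 point per library, coloured by day, with day 60 replicate 1 ringed. The ringed library holds 40.08 FPKM of LOC101160582 and only 6.61 FPKM of lhb, apart from the other 19 libraries.

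Other pituitary transcripts ran less close. Without day 60 replicate 1, r was 0.45 for pomc, 0.43 for growth hormone (LOC101171460) and 0.47 for prolactin (LOC101172582). The summed level of the 10 entries had an r of 0.36 over all 20 libraries. Because the sum takes in lhb, cga and fshb as well as day 60 replicate 1, it does not measure the other transcripts alone. That sum was 3010 to 5269 FPKM on day 0 and 6394 to 9081 FPKM on day 120, and day 120 had the highest mean of log2 values for 5 of the 8 tested entries, beside 13.7% of all genes tested. One of the 5, somatolactin (LOC100049402), had a higher FPKM mean on day 90, at 437 ± 395 FPKM (SD, n = 3), than on day 120, at 416 ± 159 FPKM (SD, n = 3). The summed hypothalamus markers had an r of 0.56, or 0.18 over the 14 later libraries, and 0 of 14 were called while 8 had an unadjusted p under 0.05 (limma F test), beside 13.1% of all genes tested. The summed telencephalon markers had an r of 0.33, and 0 of 11 were called while 2 had an unadjusted p under 0.05. The part that differences in dissection had in the level of LOC101160582 was not tested.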

How the data were processed

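Gene levels were the FPKM values that the authors deposited for 20 libraries, per the file headers. The submitters' processing notes list RSEM (1.2.12) and Bowtie2 (2.2.5). The genome build is not given in the sources used here. Strand-specific libraries were made from polyadenylated RNA, per the labels' protocols. Values have 2 decimals and no counts, so depth is unknown, and total FPKM per library was 374770 to 405678. Because RSEM divides reads among similar copies, members of a gene family may share theirs.

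Of 22615 genes, 21722 identifiers matched RefSeq assembly ASM223467v1, used for names and gene order, and 893 were the authors' predicted genes. Tests covered the 15947 genes whose mean reached 1 FPKM and used limma (3.58.1; R 4.3.3) on log2(FPKM + 1), with 1 mean per day, a prior variance following the mean level, and Benjamini-Hochberg adjustment. The procedure was checked on simulated data. Other values were computed with pandas (2.3.3) and numpy (2.4.6) in Python (3.11.15). Named were the gene, its family and receptors, neighbours, the 10 most and 3 least like genes by r, up to 4 members per list by p, and fixed comparison genes. Members and lists were chosen with earlier results of these data known, and lists were extended by protein descriptions after the table was seen. Marker genes named for tissue checks were chosen after their values were seen. Groups were the labels' days.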

Additional observations from a re-analysis of the deposited data

How the results depend on the processing

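The difference of LOC101160582 from day 0 kept its sign on every later day under a pseudocount of 0.1, rescaling, quantile normalization and each library left out. With 1 library left out it ran from 0.22 to 0.54 on day 7, 2.52 to 3.18 on day 30, 1.13 to 2.52 on day 60, 1.32 to 1.64 on day 90, 2.98 to 3.41 on day 120 and 1.95 to 2.88 on day 150 (log2). Day 60 was 1.13 without day 60 replicate 1 and day 150 replicate 1 together, the removal of both being chosen after seeing the data. Day 60 rests on 2 libraries that differ by a factor of 2.73.

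Of the 10 closest genes, 6 remained at a mean of at least 5 FPKM, 3 over days 30 to 150, 2 by day means and 0 by deviations from day means; the filter removes low genes such as pgr, and the other causes were not tested. Between 7 and 10 remained with 1 library left out. Of listed genes, 2 were called, 1 over days 7 to 150 and 1 to 9 with 1 library left out: 9 without day 60 replicate 2, and 4 (cyp19b, cga, npb and lhb) without day 60 replicate 1. The other precursors and the receptors had 0 calls in all 27 settings each. The labels give no replicate numbers, and those used here follow the order of the samples within each day. The labels name no pairing between days, so no paired analysis was done. Depth is unknown, so low levels such as pgr carry an error that cannot be stated.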

Other observations

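Outside its own family, 2 hypothalamic releasing peptides also lay near LOC101160582. The vasoactive intestinal peptide gene vip had an r of 0.75 over the 20 libraries and ghrh, which encodes growth hormone-releasing hormone, had 0.73. Neither is among the 10 closest genes, and both are named after their values were seen. Over the 14 libraries of days 30 to 150 r was 0.68 for vip and 0.62 for ghrh, where 95% of all genes lay below 0.49. Over deviations from day means in the 20 libraries r was 0.32 for vip and 0.26 for ghrh, where 95% of all genes lay below 0.48. Some other peptide genes of the brain lay further off over the 20 libraries, with r of 0.63 for crh, 0.47 for gnrh1, 0.10 for kiss-2 and −0.05 for gnrh3.

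Both genes next to LOC101160582 in RefSeq order had a narrow range. LOC101160191, the gene before it, ranged from 8.24 to 11.3 FPKM over the 20 libraries, and malsu1, the gene after it, from 5.89 to 9.37 FPKM. LOC101160838 (sphingomyelin phosphodiesterase 5), the gene after malsu1, ranged from 0.6 to 6.19 FPKM. On the other side, gsdme ranged from 0.39 to 1.38 FPKM and osbpl3 from 5.56 to 14.5 FPKM.

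Among pancreatic and gut endocrine markers, insulin (LOC100125446) was at a mean of 1.42 FPKM with a range of 0.07 to 6.15 FPKM, whereas the somatostatin entries LOC101157910 and LOC101158162, which neurons also express, were at 172 and 29.5 FPKM. The summed level of these 9 entries had an r of 0.19 with LOC101160582.

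In the remaining marker lists the limma F test over the 7 days called 0 genes. Unadjusted p lay under 0.05 for 6 of 8 blood cell genes tested, 4 of 11 pituitary cell regulators, 1 of 8 oligodendrocyte genes, 0 of 3 microglia and leukocyte genes and 0 of 2 retina genes, beside 13.1% of all genes tested. The summed levels of these lists had an r with LOC101160582 of 0.21, 0.36, −0.32, −0.40 and 0.07 in the same order.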
